A study of Mus musculus with 12 samples.

Results

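Preadipocytes and intermediate cells of the newborn vessel wall were compared across all genes, as 3 libraries of each population, which are 6 of the 12 libraries of the series. The source tissue was the aorta with the perivascular fat around it, taken from wild type CD-1 mouse pups of both sexes at postnatal day 3, digested with collagenase D and dispase II and separated by flow cytometry. The members of each group were taken from the sample titles, which name the sorted population and a replicate number. The labels do not say what defines an intermediate cell, whether pups were pooled or which gates were used, so a surface gene discussed below may have been part of the sort. Whether the replicates are separate litters or separate sorts is not stated, and p-values therefore measure the spread between these libraries, which may be technical. The SMART-Seq v4 kit for very low RNA input was used to copy and amplify poly(A) RNA. Library totals were 12862486 to 15550623 counts in intermediate and 15148249 to 15739798 counts in preadipocyte libraries.

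Perivascular fat of the thoracic aorta in mice resembles brown fat, a tissue whose cells burn fatty acids in abundant mitochondria and release the energy as heat through the uncoupling protein Ucp1. Preadipocytes are cells committed to this fate, driven by the nuclear receptor Pparg and the factor Cebpa, which switch on genes for lipid storage as the cells mature. The vessel wall beside them is built by mural cells, which are smooth muscle cells and pericytes, and by fibroblasts, which secrete collagen and elastic fibres. Mural cells contract through a smooth muscle form of actin and myosin, and Notch and Hedgehog signals are among the cues that pattern them.

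Of 17463 genes with enough counts to be tested, 10443 differed between the populations (59.8%), with 5479 higher (31.4%) and 4964 lower (28.4%) in preadipocyte libraries, by edgeR's quasi-likelihood test at a Benjamini-Hochberg adjusted p under 0.05. Scaled by library size alone, without the TMM factors that correct for a few very abundant genes, 7289 genes were higher and 3453 lower, since that scaling shifts the median of all genes by 0.362 on the log2 scale. Differences of at least 4-fold were called in 1251 genes (7.16%) in the higher and 1356 genes (7.76%) in the lower direction. With differences this widespread, a count of members is read below against these shares. The 3 libraries of one group did not overlap those of the other in 11740 genes (67.2%). At differences of at least 16-fold the counts were 162 (0.928%) and 132 (0.756%). Levels are given in CPM, each count scaled to the library total, after TMM scaling unless stated, and fold changes are log2 of preadipocyte over intermediate with their SE, and "called" means an adjusted p under 0.05. In a bulk library, fewer cells of a type and less RNA per cell cannot be told apart.

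**Figure D1:**
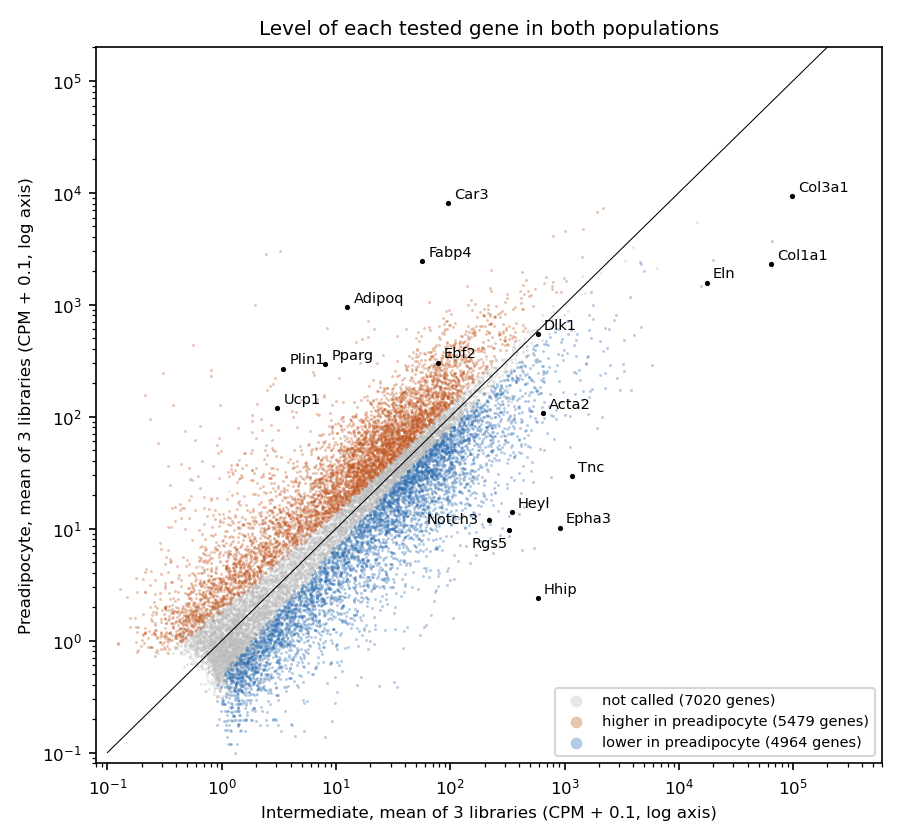
Each point is 1 of 17463 tested genes, at its mean CPM plus 0.1 in 3 intermediate libraries (x, log axis) and 3 preadipocyte libraries (y, log axis), with the diagonal marking equal levels. Fat cell genes such as Adipoq and Plin1 lie far above the diagonal, Hhip, Epha3 and Tnc far below it, and Dlk1 close to it.

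Library content also differed. Haemoglobin genes took 1.83% of the counts of preadipocyte replicate 3. The other preadipocyte libraries held 0.114% (replicate 1) and 0.129% (replicate 2), and no intermediate library held more than 0.00082%. Red cell markers were called higher in 10 of 10 tested members. Their summed level by library size alone was 1423, 1672 and 21680.0 CPM in the preadipocyte and 21.4 to 26.2 CPM in the intermediate libraries. DESeq2 gave an adjusted p for 2 of the 10 and called both, and 9 were called without preadipocyte replicate 3. Neuron markers were higher in 12 of 13 members, with sums of 168.3 to 285.0 CPM in preadipocyte against 25.7 to 39.99 CPM in intermediate libraries, among them Dbh, which makes noradrenaline from dopamine. Striated muscle markers were higher in 8 of 12 tested members and lower in 1, with sums of 127.1 to 248.7 CPM in preadipocyte against 29.5 to 52.3 CPM in intermediate libraries. Sums of endothelial markers (130.9 to 333 against 191.6 to 310.1 CPM), leukocyte markers (31.9 to 74.0 against 59.6 to 78.3 CPM) and Schwann cell markers (29.2 to 54.3 against 31.8 to 37.1 CPM) overlapped between preadipocyte and intermediate libraries. Lars2, a mitochondrial tRNA synthetase gene, held 1.03% to 1.58% of counts in intermediate libraries and 1.42% in preadipocyte replicate 1, but 0.172% and 0.284% in replicates 2 and 3. Gm23935 rose and fell with Lars2. It held 0.461% to 0.717% in intermediate libraries and 0.615%, 0.0459% and 0.0786% in preadipocyte replicates 1, 2 and 3. No marker list had a member at 0 in all 6 libraries. Without preadipocyte replicate 3 there were 5616 higher and 5743 lower genes, and without replicate 1 there were 5219 and 5084. Exons of 120 of the 424 genes that the naming rule selects overlap another annotated gene, among them Cebpa, Ebf2, Prdm16, Dio2, Adrb3, Pdgfra, Notch3, Hhip, Gli1, Eln, Col3a1 and Tnc, and their counts are uncertain to that extent. For 103 of the 424 the overlap includes a gene on the opposite strand. The use of strand in counting is not given in the sources used here.

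**Figure D2:**
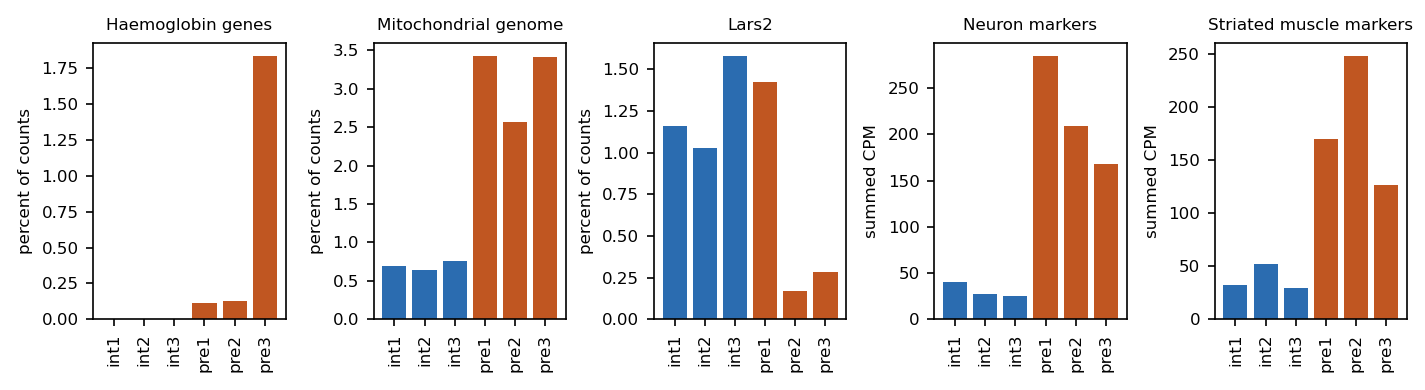
Bars give, for each intermediate (int, blue) and preadipocyte (pre, orange) library, the percent of counts in haemoglobin genes, the mitochondrial genome and Lars2, and the summed CPM by library size of neuron and striated muscle markers. Haemoglobin stands at 1.83% in preadipocyte replicate 3, and the mitochondrial share is 2.56% to 3.43% in preadipocyte against 0.636% to 0.754% in intermediate libraries.

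The largest differences included fat cell and red cell genes on one side and Hedgehog, guidance and matrix genes on the other. Among genes of at least moderate level, with a mean log2 CPM of 4 or more and no overlap between groups, the 12 largest increases were Hbb-bs, Hba-a1, Car2, Car3, Plin1, Slc36a2, Adipoq, Gpd1, Reep6, Hp, Cidec and Mrap. The first 3 are red cell genes, by far highest in preadipocyte replicate 3. Hba-a1, an alpha globin, stood at 4.51, 0.725 and 4.12 CPM in the intermediate and 483, 608 and 7925 CPM in the preadipocyte libraries, and its log2 fold change of 9.94 was 7.51 without replicate 3, as Hbb-bs went from 10.27 to 7.64 and Car2 from 9.06 to 6.0. Hbb-bs was also moved, to 10.94, by leaving out intermediate replicate 1. Adipoq encodes adiponectin, a hormone secreted by fat cells, and lies on chromosome 16 from 23146536 to 23158028 of mm10. It stood at 13.9, 12.3 and 11.1 CPM in the intermediate and 928, 1178 and 747 CPM in the preadipocyte libraries, a log2 fold change of 6.26 ± 0.23 (edgeR adjusted p = 3.56e-07). Car3, a carbonic anhydrase abundant in fat, was at 122, 86.7 and 78.8 CPM in the intermediate and 7598, 10736 and 5853 CPM in the preadipocyte libraries. In both genes the lowest preadipocyte library lay many times above the highest intermediate library.

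The 12 largest decreases were Hhip, Epha3, Fmo2, Tspan11, Prss35, Ntn1, Tnc, Itgbl1, Cd200, Rgs5, Sfrp4 and Chst2. Hhip, a membrane protein that binds Hedgehog ligands and limits their action, lies on chromosome 8 from 79965851 to 80058006 of mm10. Its level was 547, 599 and 595 CPM in the intermediate and 1.81, 3.02 and 2.04 CPM in the preadipocyte libraries, a log2 fold change of -7.98 ± 0.23 (edgeR adjusted p = 2.67e-07). Epha3, a receptor for ephrins that steers cells and axons, was at 929, 951 and 834 CPM in the intermediate and 8.48, 10.6 and 11.3 CPM in the preadipocyte libraries. All 3 intermediate libraries were high and all 3 preadipocyte libraries low in both genes, and replicates within a group lay close together. Chst2, a sulfotransferase, had a log2 fold change of -4.95 that became -5.54 without preadipocyte replicate 1.

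The label preadipocyte was checked against its markers. Of 14 tested markers of committed preadipocytes, 6 were higher and 5 lower, where 31.4% and 28.4% of all tested genes were. The list as a whole thus did not separate the populations. Pparg, Fabp4 and Cd36 were among the higher ones, whereas the surface genes Icam1, Vcam1, F3 and Gpc3 and the secreted factor Clec11a were lower. Vcam1, an adhesion molecule, was at 253, 253 and 253 CPM in the intermediate and 45.0, 46.8 and 43.2 CPM in the preadipocyte libraries. Dlk1, also called preadipocyte factor 1 because its product holds preadipocytes undifferentiated, was at 605, 533 and 612 CPM in the intermediate and 717, 476 and 433 CPM in the preadipocyte libraries. The groups overlap there, with a log2 fold change of -0.11 ± 0.19 (edgeR adjusted p = 0.657) and a sign that turns to 0.26 with library size alone. Genes of fat cells that already store lipid, described next, were high in the same libraries. The libraries are called preadipocyte here after their label.

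Among 19 tested markers of adventitial and adipose progenitors and fibroblasts, 3 were higher and 11 lower in preadipocyte libraries. The higher ones were Cd55 (1.88, 1.01 without preadipocyte replicate 3), Gsn (0.65) and Scara5 (0.48). Scara5 lost its call in 4 of the fits that left out a library. Pi16, a marker of adventitial progenitors, was at 96.7, 89.4 and 106 CPM in the intermediate and 11.9, 16.1 and 7.73 CPM in the preadipocyte libraries. Pdgfra, a PDGF receptor that many fibroblasts carry, was at 289, 315 and 270.1 CPM in the intermediate and 115, 117 and 85.0 CPM in the preadipocyte libraries, a log2 fold change of -1.47 ± 0.16 (edgeR adjusted p = 4.13e-05). Dpp4, another progenitor marker, was low on both sides, at 4.08 against 3.999 CPM on average in intermediate and preadipocyte libraries. Intermediate libraries thus carried more of Pi16 and Pdgfra, and they also carried the mural genes described below. The groups did not overlap for Pi16 or Pdgfra, which held for 67.2% of all tested genes.

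Transcription factors that build fat cells differed strongly. Of 30 adipogenic regulators, 18 were higher and 6 lower in preadipocyte libraries, with a median log2 fold change of 1.83 where the median of all genes was 0.00. Pparg, on chromosome 6 from 115360951 to 115490399 of mm10, was at 8.25, 8.63 and 6.83 CPM in the intermediate and 289.7, 373 and 221 CPM in the preadipocyte libraries. Its log2 fold change was 5.22 ± 0.23 (edgeR adjusted p = 5.81e-07), and the groups were far apart. Cebpa, its partner in the adipocyte programme, was at 9.53, 8.63 and 9.37 CPM in the intermediate and 127, 76.0 and 43.0 CPM in the preadipocyte libraries, a log2 fold change of 3.16 ± 0.35 (edgeR adjusted p = 5.86e-05). Preadipocyte replicate 3 was the lowest and replicate 1 the highest of its group for Cebpa, yet all 3 lay above every intermediate library. The carbohydrate-response factor Mlxipl (4.70), the coactivator Ppargc1b (4.57) and the metabolic factor Klf15 (3.22) were also higher by these log2 fold changes.

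Among the regulators that set brown against white fate, Ebf2 was at 86.3, 75.1 and 70.5 CPM in the intermediate and 329.5, 348 and 234 CPM in the preadipocyte libraries, a log2 fold change of 1.97 ± 0.18 (edgeR adjusted p = 1.44e-05). Prdm16, a coregulator of brown fat identity, was at 6.04, 3.77 and 1.84 CPM in the intermediate and 28.6, 18.8 and 11.6 CPM in the preadipocyte libraries, a log2 fold change of 2.34 ± 0.44 (edgeR adjusted p = 0.00149). Both factors had measurable levels in intermediate libraries and higher levels, without overlap, in preadipocyte libraries. The 6 lower regulators were Nr2f2 (-2.27), Klf4 (-2.27), Zfp516 (-2.002), Zfp521 (-1.96), Zfp423 (-1.37) and Cebpd (-1.25). Zfp521 is known to restrain adipogenesis, and Zfp423 to mark committed preadipocytes and to hold back the thermogenic programme. Cebpb, which acts early in differentiation, had a log2 fold change of 0.86 ± 0.44 that did not pass the test (edgeR adjusted p = 0.119).

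**Figure D3:**
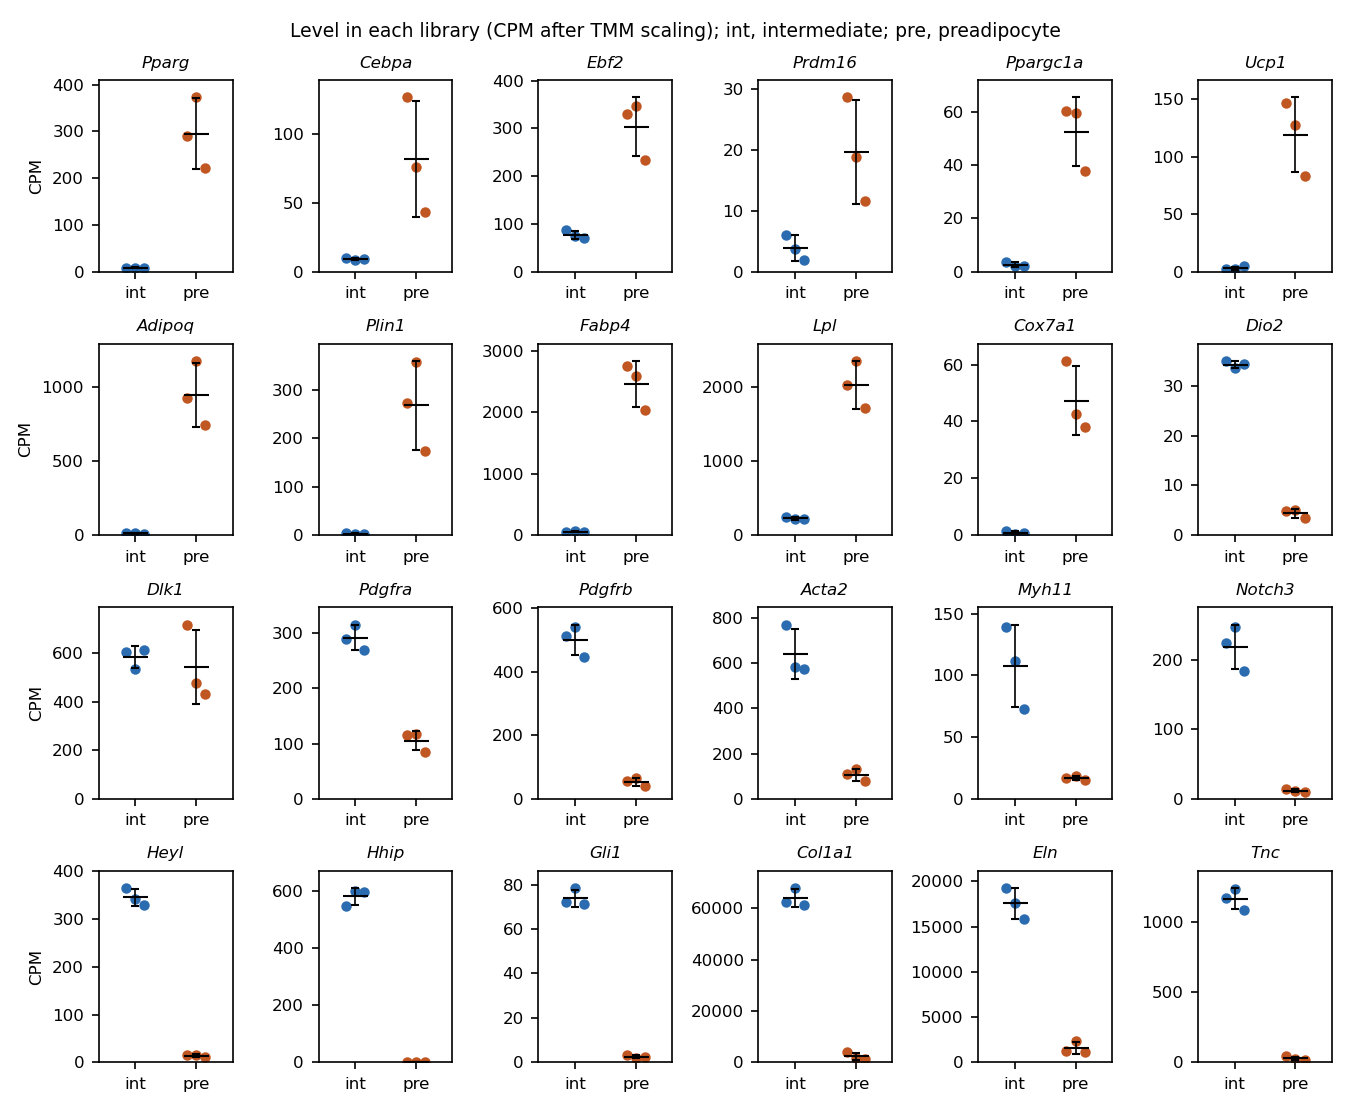
Points give the CPM after TMM scaling of 24 genes in 3 intermediate (int) and 3 preadipocyte (pre) libraries, with horizontal marks at the mean and bars of 1 SD (y axes start at 0). Pparg, Ucp1 and Adipoq are high in every preadipocyte library, Dlk1 overlaps between groups, and Dio2 and the vessel wall genes are high in every intermediate library.

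Genes that take up and store fat were higher in preadipocyte libraries. For fatty acid uptake, 9 of 12 tested members were higher in preadipocyte libraries and 3 lower, with a median log2 fold change of 1.28. Fabp4, the fatty acid carrier of adipocytes, was at 58.2, 60.6 and 51.4 CPM in the intermediate and 2752, 2584 and 2039 CPM in the preadipocyte libraries, a log2 fold change of 5.44 ± 0.19 (edgeR adjusted p = 3.56e-07). Lpl, the lipase that frees fatty acids from lipoproteins, was at 251, 215 and 221 CPM in the intermediate and 2021, 2348 and 1711 CPM in the preadipocyte libraries, so intermediate libraries held it at a clear but lower level. The endocytic receptors Lrp1 (-2.34) and Vldlr (-1.80) were among the lower members.

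In triglyceride synthesis and storage, 17 of 20 tested members were higher and none lower, with a median of 3.14. Plin1 coats the lipid droplet and gates its breakdown, and it was at 3.74, 3.19 and 3.07 CPM in the intermediate and 272, 358 and 174 CPM in the preadipocyte libraries, a log2 fold change of 6.33 ± 0.30 (edgeR adjusted p = 6.76e-07). Cidec, which fuses droplets (6.17), the glycerol phosphate enzyme Gpd1 (6.22) and the glycerol channel Aqp7 (5.51) were among the called members. Gpam, Agpat3 and Hilpda did not pass the test, at log2 fold changes of 0.51, 0.33 and -0.07. Lipolysis genes showed the same direction in 10 of 12 members with a median of 3.37, among them the hormone-sensitive lipase Lipe (4.42), Pnpla2 (3.80), which starts triglyceride breakdown, and its inhibitor G0s2 (5.36). The adenylyl cyclase gene Adcy3 was the 1 lower member (-1.29).

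Synthesis of fatty acids did not follow this direction. Among 18 tested lipogenesis genes, 5 were higher and 6 lower, with a median of -0.12 that became 0.24 with library size alone. The shares over all tested genes were 31.4% higher and 28.4% lower. Thrsp, a lipogenic nuclear protein of fat and liver, was at 1.79, 1.89 and 1.58 CPM in the intermediate and 97.6, 135 and 79.5 CPM in the preadipocyte libraries, with no overlap between groups. Scd1, a desaturase, had a log2 fold change of 2.45 that fell to 1.26 without preadipocyte replicate 2, while its paralog Scd2 was lower (-1.73). Fasn, the fatty acid synthase, was at 242 ± 13.7 CPM in intermediate and 168 ± 38.9 CPM in preadipocyte libraries (SD, n = 3), and its log2 fold change of -0.53 ± 0.17 (edgeR adjusted p = 0.0237) lost its call when any intermediate library or preadipocyte replicate 2 was left out, and with library size alone or no filter. Acaca, which makes malonyl-CoA, did not pass the test (-0.19 ± 0.22, edgeR adjusted p = 0.47).

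Secreted proteins of fat cells were higher in 14 of 18 tested members and lower in 1, with a median of 1.88. Beside Adipoq these included Cfd, the complement factor adipsin, at 0.766, 0.145 and 0.526 CPM in the intermediate and 48.7, 78.0 and 58.5 CPM in the preadipocyte libraries, and the hormone resistin, Retn, at 0.34, 0.145 and 0.788 CPM in the intermediate and 28.0, 32.0 and 22.7 CPM in the preadipocyte libraries. Intermediate libraries were close to the limit that a count of 0 allows, 0.193 to 0.233 CPM, for both genes. The lipocalin Lcn2 (5.38) and the angiotensin precursor Agt (2.73) were also higher by these log2 fold changes. Metrnl was the 1 lower member (-1.80), and 2 were lower without preadipocyte replicate 1.

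Thermogenic genes were higher in 19 of 27 tested members and lower in 5, with a median of 1.97. Ucp1, on chromosome 8 from 83290352 to 83298452 of mm10, was at 2.04, 2.32 and 4.55 CPM in the intermediate and 147, 127 and 83.4 CPM in the preadipocyte libraries. Its log2 fold change was 5.33 ± 0.34 (edgeR adjusted p = 2.35e-06), and every preadipocyte library lay above every intermediate library. Ppargc1a, the coactivator that drives mitochondrial biogenesis, was at 3.57, 2.25 and 2.1 CPM in the intermediate and 60.5, 59.8 and 37.9 CPM in the preadipocyte libraries. The cytochrome oxidase isoforms of brown fat and muscle followed, with Cox7a1 at 1.36, 0.435 and 0.701 CPM in the intermediate and 61.2, 42.7 and 38.0 CPM in the preadipocyte libraries and Cox8b at 0.0851, 0.29 and 0.613 CPM in the intermediate and 16.9, 14.5 and 12.7 CPM in the preadipocyte libraries. The groups did not overlap in any of these genes, which was so for 67.2% of all tested genes. Cidea, a lipid droplet protein of brown fat, was at 0.34, 0.145 and 0.263 CPM in the intermediate libraries, near the limit for a count of 0, and at 31.4, 26.3 and 14.97 CPM in the preadipocyte libraries. The noradrenaline receptor of fat, Adrb3, was at 1.62, 1.16 and 1.66 CPM in the intermediate and 37.2, 57.1 and 46.3 CPM in the preadipocyte libraries. In these genes preadipocyte replicate 3, the library with the most haemoglobin, was lowest for Ucp1, Ppargc1a, Cox7a1, Cox8b and Cidea but not for Adrb3. The summed neuron and striated muscle markers given above moved the same way as this list, and their part in it was not tested.

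Dio2, the deiodinase that activates thyroid hormone in brown fat, went the other way. It was at 34.9, 33.5 and 34.4 CPM in the intermediate and 4.76, 4.96 and 3.41 CPM in the preadipocyte libraries, a log2 fold change of -2.96 ± 0.19 (edgeR adjusted p = 2.65e-06), and the groups did not overlap. Ckb (-2.04), a creatine kinase, the creatine transporter Slc6a8 (-1.495), the thioesterase Acot11 (-1.70) and S100b (-1.01) were lower as well. The call of S100b was lost without intermediate replicate 1 or 3 or preadipocyte replicate 2, within a range of -1.42 to -0.73, and with library size alone. Gamt, which completes creatine synthesis, had a log2 fold change of 0.00 ± 0.22 and did not pass the test (edgeR adjusted p = 0.992).

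Mitochondrial genes differed together. In the respiratory chain, 36 of 37 complex I genes were higher (median 2.14), as were 14 of 14 genes of complexes II and III and cytochrome c (2.67), 15 of 17 complex IV genes (2.54) and 16 of 16 ATP synthase genes (1.93). All 13 genes encoded on the mitochondrial genome were higher too, with a median of 2.06. Atp5b, the catalytic beta subunit of the ATP synthase, was at 858, 733 and 779 CPM in the intermediate and 3914, 4714 and 3797 CPM in the preadipocyte libraries, a log2 fold change of 2.39 ± 0.16 (edgeR adjusted p = 2.5e-06). mt-Co1, the core subunit of cytochrome oxidase made inside the mitochondrion, was at 2009.6, 1814 and 1891 CPM in the intermediate and 5927, 5539.9 and 8528 CPM in the preadipocyte libraries, a log2 fold change of 1.81 ± 0.19 (edgeR adjusted p = 4.19e-05). In Atp5b and mt-Co1 every preadipocyte library thus stood above every intermediate library. The 2 lower complex IV genes, Cox4i2 (-2.10) and Ndufa4l2 (-4.08), are isoforms known from pericytes and low oxygen. Ndufb2 of complex I did not pass the test (0.26 ± 0.15, edgeR adjusted p = 0.173).

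Fuel pathways moved with the chain. All 19 TCA cycle genes were higher (median 2.54), as were 22 of 23 fatty acid oxidation genes (2.53) and 15 of 21 glycolysis genes (1.74). Idh3a, the catalytic subunit of isocitrate dehydrogenase, was at 73.2, 57.9 and 63.8 CPM in the intermediate and 1063, 1210.3 and 900.3 CPM in the preadipocyte libraries, a log2 fold change of 4.03 ± 0.17 (edgeR adjusted p = 5.09e-07). Pyruvate carboxylase, Pcx, which refills the cycle, had a log2 fold change of 4.99, Pdk4, which spares pyruvate when fat is burned, 4.34, and the lactate dehydrogenase subunit Ldhb 4.78. Cpt1a, the liver-type gate for fatty acids into mitochondria, was the 1 lower oxidation gene, at 145 ± 1.2 CPM in intermediate and 61.9 ± 15.2 CPM in preadipocyte libraries (SD, n = 3). The lactate exporter Slc16a3, the lower glycolysis gene (-1.33), became -2.32 without preadipocyte replicate 3 and lost its call without any other single library and with library size alone or DESeq2.

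**Figure D4:**
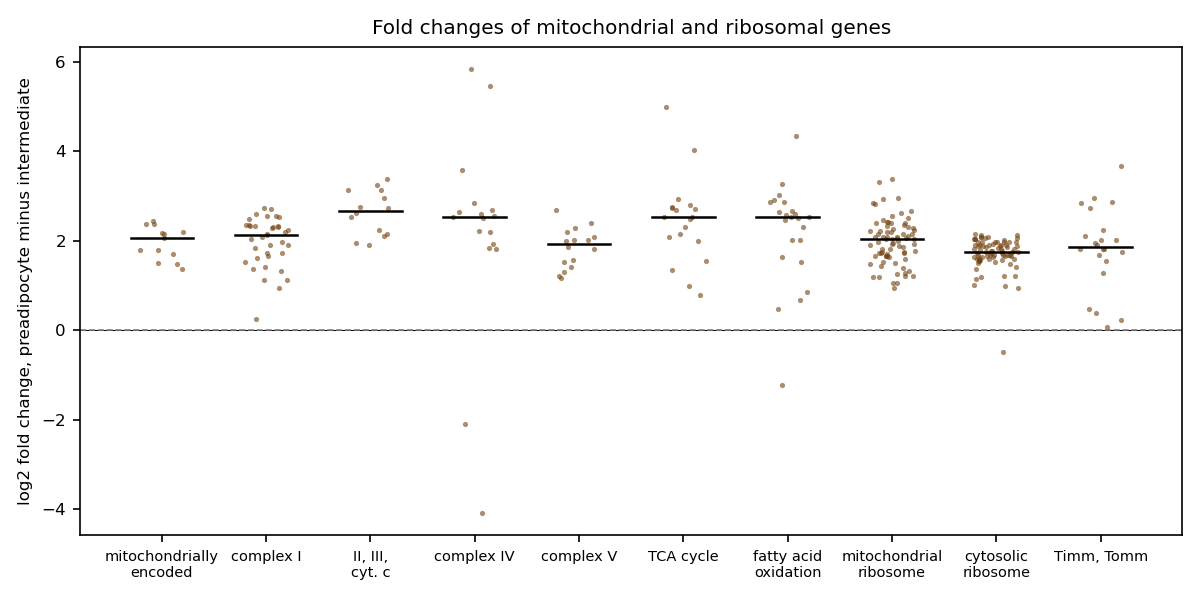
Each point is the log2 fold change, preadipocyte minus intermediate, of 1 tested gene in 10 sets of mitochondrial and ribosomal genes, and each short bar is the median of its set. The medians lie between 1.75 and 2.67, above the line at 0, which is also the median of all tested genes.

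Genes of dividing cells were higher in preadipocyte libraries. All 26 tested genes of the G2 and M phases were called higher, with a median of 1.71, and 21 of 24 genes of G1 and S phase, with a median of 1.70. Mki67, a protein present in cycling cells, was at 94.2, 87.7 and 79.9 CPM in the intermediate and 216, 175 and 427 CPM in the preadipocyte libraries, a log2 fold change of 1.64 ± 0.30 (edgeR adjusted p = 0.00116). Rrm2, the ribonucleotide reductase subunit that supplies DNA synthesis, was at 92.2, 70.0 and 76.9 CPM in the intermediate and 409, 561 and 971 CPM in the preadipocyte libraries. In both genes preadipocyte replicate 3, the library with the most haemoglobin, was the highest, and the part of red cell precursors in this was not tested. Without that library 25 of 26 G2 and M genes were still called higher at a median of 1.53, and 21 of 24 G1 and S genes at a median of 1.35, with 1 called lower. The D-type cyclins Ccnd2 and Ccnd3 did not pass the test (-0.31 and -0.13), nor did E2f1 (0.38). Among 6 tested inhibitors of cyclin-dependent kinases, 3 were higher and 1 lower. The lower one, Cdkn1c (-0.45), lost its call without intermediate replicate 1 or 3 or preadipocyte replicate 2 and with library size alone or no filter, and 2 were lower without preadipocyte replicate 3. Cdkn1a (0.41), among the higher ones, lost its call in 4 of the 6 fits that left out a library. The other higher ones, Cdkn2b (4.29, range 3.93 to 5.32 over those fits) and Cdkn2c (1.49, range 1.27 to 1.56), kept theirs.

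Promoters of the G2 and M genes are shown because these genes moved together and share sequence elements. The CHR element (TTTGAA) and the CCAAT box (CCAAT) are known docking sites of the MuvB complexes and of NF-Y at such promoters. In RefSeq promoters of GRCm38.p6, from 250 bases before to 30 bases after the annotated start and on both strands, 21 of the 26 genes had an entry. Of these 21 genes, 12 held a CHR (57.1%, against 19.5% of 27025 genes with an entry) and 18 a CCAAT box (85.7%, against 39.7%). In Ube2c, matches to CCAAT on opposite strands share letters in the stretch CCAATTGG. The 4 called genes with the largest fold change that held both are printed 5′ to 3′ on the gene's strand, with matches to either pattern on either strand in capitals. Ube2c, an E2 enzyme of the anaphase-promoting complex, lies at chr2:164769679-164769958 on the plus strand, the cyclin gene Ccnb2 at chr9:70421525-70421804 on the minus strand, Cdc20, which activates that complex, at chr4:118437314-118437593 on the minus strand, and Hmmr, a spindle protein, at chr11:40733408-40733687 on the minus strand.
Ube2c: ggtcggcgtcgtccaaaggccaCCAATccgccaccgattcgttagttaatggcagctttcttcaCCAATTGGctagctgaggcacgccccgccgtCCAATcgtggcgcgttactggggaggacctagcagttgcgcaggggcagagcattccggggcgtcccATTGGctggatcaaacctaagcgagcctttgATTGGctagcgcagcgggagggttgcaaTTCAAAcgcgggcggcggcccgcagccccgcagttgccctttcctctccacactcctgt
Ccnb2: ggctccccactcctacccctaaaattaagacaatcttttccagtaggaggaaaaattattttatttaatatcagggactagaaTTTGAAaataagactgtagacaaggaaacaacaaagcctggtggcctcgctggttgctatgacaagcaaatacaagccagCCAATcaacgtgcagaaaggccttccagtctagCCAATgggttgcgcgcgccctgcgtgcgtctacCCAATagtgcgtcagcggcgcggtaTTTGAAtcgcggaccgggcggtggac
Cdc20: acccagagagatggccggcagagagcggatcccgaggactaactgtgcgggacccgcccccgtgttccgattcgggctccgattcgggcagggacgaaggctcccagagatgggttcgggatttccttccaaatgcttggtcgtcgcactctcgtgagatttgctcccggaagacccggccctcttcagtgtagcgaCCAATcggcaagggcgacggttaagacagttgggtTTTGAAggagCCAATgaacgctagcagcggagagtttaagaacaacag
Hmmr: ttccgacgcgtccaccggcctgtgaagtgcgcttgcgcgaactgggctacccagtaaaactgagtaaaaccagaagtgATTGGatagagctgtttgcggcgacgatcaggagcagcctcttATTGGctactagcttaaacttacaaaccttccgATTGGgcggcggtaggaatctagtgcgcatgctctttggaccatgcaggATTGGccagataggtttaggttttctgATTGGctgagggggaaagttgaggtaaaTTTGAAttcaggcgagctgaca
The level of Ube2c was 53.3, 43.5 and 42.3 CPM in the intermediate and 176, 189.8 and 406 CPM in the preadipocyte libraries, that of Ccnb2 44.8, 35.7 and 39.2 CPM in the intermediate and 130.0, 136 and 207 CPM in the preadipocyte libraries. Cdc20 was at 53.6, 44.1 and 45.2 CPM in the intermediate and 153, 187 and 197 CPM in the preadipocyte libraries and Hmmr at 29.0, 25.6 and 20.3 CPM in the intermediate and 66.2, 73.0 and 128 CPM in the preadipocyte libraries. Every preadipocyte library was above every intermediate library in these 4 genes, and exons of Ube2c and Cdc20 overlap another gene. A match is a description of the letters and not evidence of binding.

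Genes of contractile cells went the other way. Of 28 tested contractile and cytoskeletal genes, 24 were lower and 2 higher in preadipocyte libraries, with a median of -2.08. Acta2, smooth muscle actin, was at 771, 582 and 574 CPM in the intermediate and 111, 131 and 78.2 CPM in the preadipocyte libraries, a log2 fold change of -2.59 ± 0.21 (edgeR adjusted p = 9.3e-06). Myh11, the smooth muscle myosin heavy chain, was at 139, 111 and 73.0 CPM in the intermediate and 17.1, 18.3 and 15.2 CPM in the preadipocyte libraries, a log2 fold change of -2.68 ± 0.23 (edgeR adjusted p = 1.22e-05). All intermediate libraries lay above all preadipocyte libraries in both genes. Itga8 (-3.55), an integrin of smooth muscle, and the small heat shock protein Cryab (-3.50) were lower too. Des (2.47), an intermediate filament of all muscle, was among the higher members. Tagln, a common smooth muscle marker, was near the limit for a count of 0 in preadipocyte libraries (1.79, 1.52 and 2.36 CPM against 0.219, 0.057 and 0.299 CPM), and its exons overlap 2 other genes.

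The CArG box, where serum response factor binds muscle and growth-response genes, was found in the same promoter window of 3 of 23 contractile genes with an entry (13.0%, against 1.73% of all genes with one). These 3 genes are printed with the match in capitals because all were lower in preadipocyte libraries. Myl9, the regulatory light chain of smooth muscle myosin, lies at chr2:156775214-156775493 on the plus strand, Filip1l at chr16:57548992-57549271 on the plus strand and Vcl, which links actin to integrins, at chr14:20929148-20929427 on the plus strand, all on GRCm38.p6.
Myl9: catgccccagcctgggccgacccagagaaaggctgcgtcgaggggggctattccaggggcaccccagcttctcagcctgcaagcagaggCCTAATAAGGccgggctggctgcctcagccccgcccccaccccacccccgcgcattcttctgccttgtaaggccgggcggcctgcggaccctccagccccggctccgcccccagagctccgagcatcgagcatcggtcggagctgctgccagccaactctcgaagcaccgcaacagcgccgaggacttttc
Filip1l: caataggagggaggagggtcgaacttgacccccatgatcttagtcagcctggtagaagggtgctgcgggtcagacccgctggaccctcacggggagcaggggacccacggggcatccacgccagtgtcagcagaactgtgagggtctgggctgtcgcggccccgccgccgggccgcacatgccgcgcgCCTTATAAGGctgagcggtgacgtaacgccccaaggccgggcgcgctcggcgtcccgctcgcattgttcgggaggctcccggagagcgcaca
Vcl: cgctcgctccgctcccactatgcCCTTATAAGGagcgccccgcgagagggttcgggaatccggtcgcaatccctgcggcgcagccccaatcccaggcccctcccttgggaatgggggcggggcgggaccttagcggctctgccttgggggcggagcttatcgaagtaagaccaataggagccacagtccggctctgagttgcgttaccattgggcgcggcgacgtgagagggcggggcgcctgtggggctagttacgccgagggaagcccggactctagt
Myl9 was at 445, 355 and 389.5 CPM in the intermediate and 62.0, 69.8 and 54.4 CPM in the preadipocyte libraries, a log2 fold change of -2.67 ± 0.15 (edgeR adjusted p = 1.43e-06). Filip1l had a log2 fold change of -1.82, and Vcl of -0.67. The other 20 contractile genes with an entry lack these letters in this window, which says nothing of the factor elsewhere. Srf itself, the gene of serum response factor, was at 39.8 ± 3.01 CPM in intermediate and 38.6 ± 3.93 CPM in preadipocyte libraries (SD, n = 3) and did not pass the test (edgeR adjusted p = 0.79).

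The list of mural regulators also holds factors of fibroblasts and other mesenchymal cells. Of its 24 tested members 20 were lower and 1 higher, with a median of -1.75. Myocd, the coactivator of serum response factor in smooth muscle, was at 7.32, 8.12 and 5.78 CPM in the intermediate and 0.711, 1.54 and 1.62 CPM in the preadipocyte libraries, a log2 fold change of -2.45 ± 0.34 (edgeR adjusted p = 0.000217). Heyl, a Notch target in mural cells, was at 364, 342 and 329.9 CPM in the intermediate and 14.9, 16.2 and 10.5 CPM in the preadipocyte libraries, a log2 fold change of -4.63 ± 0.19 (edgeR adjusted p = 4.52e-07). The groups were far apart for Heyl and did not overlap for Myocd. The forkhead genes Foxc2 (-4.91) and Foxs1 (-3.89), the Notch target Hey2 (-3.48) and the homeobox gene Meox2 (-3.03) were lower. Tbx20, the 1 higher member (1.07), lost its call in 5 of the 6 fits that left out a library.

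Pericyte markers were lower in 9 of 13 tested members and higher in 2, with a median of -2.35. Rgs5, a regulator of G protein signals in pericytes, was at 358, 305 and 309 CPM in the intermediate and 9.74, 11.6 and 7.67 CPM in the preadipocyte libraries, a log2 fold change of -5.06 ± 0.19 (edgeR adjusted p = 3.56e-07). Pdgfrb, the receptor that recruits mural cells to vessels, was at 513, 541 and 448 CPM in the intermediate and 56.1, 64.0 and 40.6 CPM in the preadipocyte libraries, a log2 fold change of -3.22 ± 0.19 (edgeR adjusted p = 1.68e-06). Kcnj8 (-4.23) and Abcc9 (-3.68), which form a potassium channel of mural cells, were lower with them. Cspg4 (-0.03 ± 0.28) and Mcam (0.20 ± 0.22), also used as pericyte markers, did not pass the test. Steap4 and Vtn were higher, by 1.63 and 1.36 on the log2 scale.

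**Figure D5:**
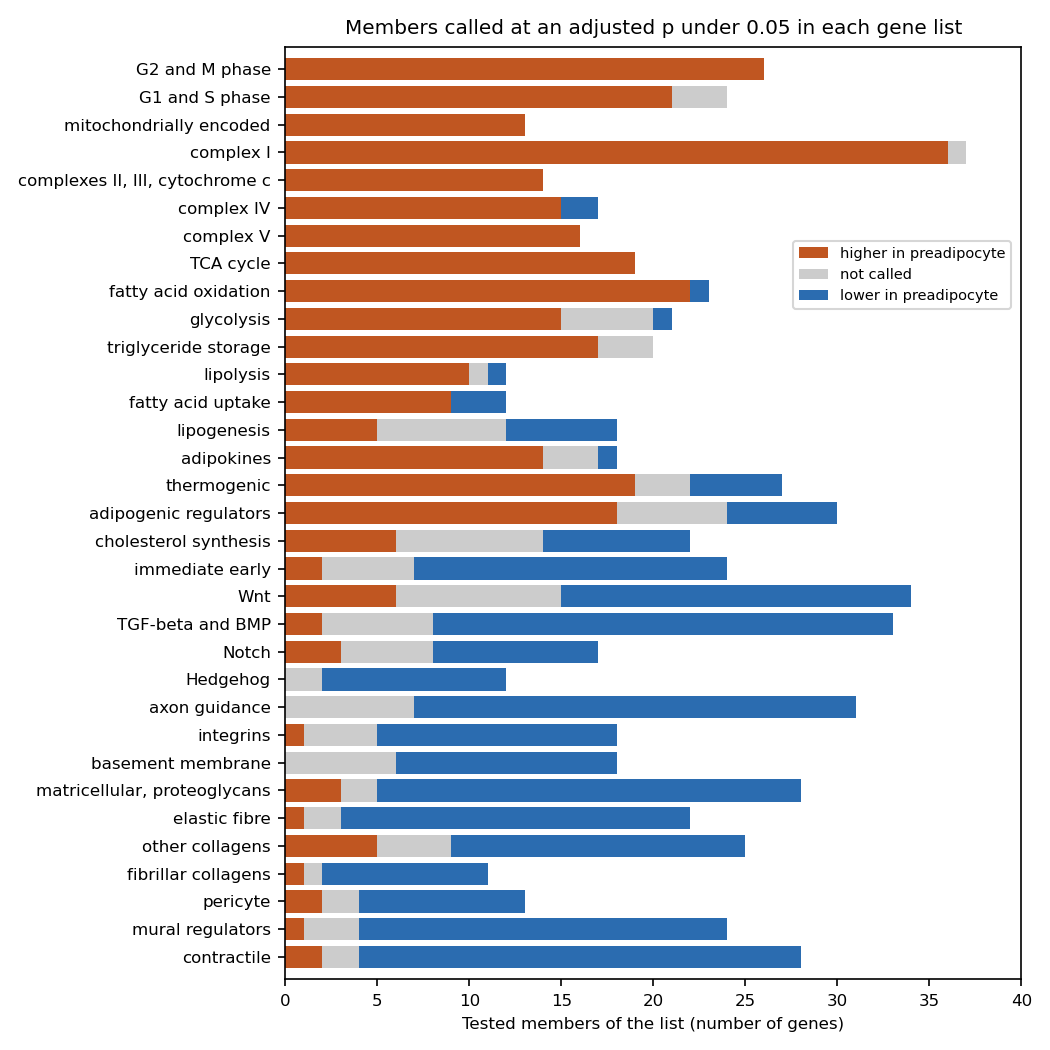
Bars give, for 33 gene lists, the number of tested members that were higher (orange) or lower (blue) in preadipocyte libraries at an adjusted p under 0.05, or not called (grey). The G2 and M list is called higher throughout (26 of 26), and the contractile list lower in 24 of 28 members.

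The extracellular matrix separated the populations broadly. Fibrillar collagens were lower in 9 of 11 members (median -2.89), other collagens in 16 of 25 (-1.68), elastic fibre genes in 19 of 22 (-2.80), matricellular proteins and proteoglycans in 23 of 28 (-2.22), integrins in 13 of 18 (-1.53), and basement membrane genes in 12 of 18 (-1.25). Col3a1, a chain of the thin collagen fibrils of vessel walls, was at 101446, 102629 and 91611 CPM in the intermediate and 10159.6, 9980.4 and 7707 CPM in the preadipocyte libraries, a log2 fold change of -3.41 ± 0.20 (edgeR adjusted p = 1.55e-06). Col1a1, a chain of type I collagen, was at 62576, 67828 and 61241 CPM in the intermediate and 3868, 1719 and 1347 CPM in the preadipocyte libraries, and its log2 fold change of -4.79 ± 0.41 became -5.40 without preadipocyte replicate 1, the highest preadipocyte library for it. Even that library held far less of Col1a1 than any intermediate library. The 10 most abundant genes of each intermediate library together took 27.0% to 28.0% of its counts, against 6.17% to 7.93% in preadipocyte libraries.

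Elastic fibres let arteries recoil. Eln, the gene of tropoelastin, was at 19209, 17581 and 15867 CPM in the intermediate and 1255, 2310.3 and 1162 CPM in the preadipocyte libraries, a log2 fold change of -3.48 ± 0.29 (edgeR adjusted p = 8.75e-06). The microfibril gene Mfap4 (-4.33), the latent TGF-beta binding protein Ltbp2 (-4.34) and the crosslinking enzyme Lox (-3.31) were lower with it. Fbln2 (0.17 ± 0.19, edgeR adjusted p = 0.453) and Fbn2 (-0.30 ± 0.23, edgeR adjusted p = 0.286) did not pass the test. Efemp1 was higher (0.87) but lost its call without intermediate replicate 2 or 3.

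Tnc, the matrix glycoprotein tenascin C, was at 1170.2, 1234 and 1085 CPM in the intermediate and 43.3, 26.2 and 18.9 CPM in the preadipocyte libraries, a log2 fold change of -5.30 ± 0.31 (edgeR adjusted p = 1.55e-06). Periostin, Postn, was at 14792, 15818 and 15875 CPM in the intermediate and 1453, 1643 and 1281 CPM in the preadipocyte libraries. Both genes were high in every intermediate library. The matricellular protein Ccn4 (-4.84), thrombospondin Thbs2 (-4.15) and the proteoglycan Bgn (-3.68) were lower by these log2 fold changes. Among the 3 higher members was Thbs4, another thrombospondin, at 10.5, 7.54 and 7.62 CPM in the intermediate and 111, 78.0 and 59.4 CPM in the preadipocyte libraries. The others were Spp1 (1.98, 1.33 without preadipocyte replicate 3) and Prelp (1.77), which encode osteopontin and a matrix proteoglycan. Among the other collagens 5 were higher, a number that fell to 3 without intermediate replicate 2 and to 2 without preadipocyte replicate 1 or intermediate replicate 3, and Col4a6 was the most reduced (-5.60). The cartilage collagen Col2a1 was called higher, but at 0.851, 0.87 and 0.701 CPM in the intermediate and 158, 5.01 and 2.7 CPM in the preadipocyte libraries its log2 fold change of 6.08 rested on preadipocyte replicate 1 and was 2.23 without it. Summed chondrocyte markers by library size were 292.6 CPM in that library and 70.8 to 128.3 CPM in the other 5. Of the integrins, Itga11, a collagen receptor, was at 94.5, 93.3 and 91.6 CPM in the intermediate and 4.82, 3.93 and 3.53 CPM in the preadipocyte libraries, while Itga6, a laminin receptor, was higher (1.58). Among the laminin chains of the basement membrane, Lama2 (-3.73) and Lamb2 (-2.80) were lower and Lama4 (0.26 ± 0.19, edgeR adjusted p = 0.253) was not called.

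Hedgehog signals restrain fat cell formation in several tissues. Of 12 tested genes of the pathway, 10 were lower in preadipocyte libraries and none higher, with a median of -1.81. Gli1, the transcriptional target that reports pathway activity, was at 72.2, 78.3 and 71.1 CPM in the intermediate and 3.28, 2.05 and 2.46 CPM in the preadipocyte libraries, a log2 fold change of -4.82 ± 0.20 (edgeR adjusted p = 4.74e-07). The receptor Ptch1 (-2.46), itself a target of the pathway, the effector Gli2 (-2.74) and the coreceptor Boc (-2.30) were lower. The negative regulator Sufu (-0.05 ± 0.16) and the ligand Dhh (-0.15 ± 0.41) did not pass the test. The ligand Shh was not analysed here.

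Notch genes were lower in 9 of 17 tested members and higher in 3, with a median of -1.12. Notch3, the receptor of mural cells, was at 223, 247 and 184 CPM in the intermediate and 14.2, 11.1 and 10.1 CPM in the preadipocyte libraries, a log2 fold change of -4.21 ± 0.19 (edgeR adjusted p = 6.01e-07). Jag1, a Notch ligand displayed on vessel wall cells, was at 404, 389 and 304 CPM in the intermediate and 49.2, 57.2 and 29.5 CPM in the preadipocyte libraries. Receptor, ligand and the targets Heyl and Hey2 were thus all high in intermediate libraries. Notch1 (0.09 ± 0.25) and Notch4 (0.02 ± 0.47) did not pass the test. The glycosyltransferase Mfng, which tunes the receptors, was higher (2.39), and the count of 3 higher members fell to 1 without intermediate replicate 3 or preadipocyte replicate 2.

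In the TGF-beta and BMP list 25 of 33 members were lower and 2 higher, with a median of -1.89. The ligand Tgfb3 (-3.04) and the follistatin-like gene Fstl1 (-2.92) were lower, and the coreceptor Tgfbr3 was higher (1.07). Bmp7, a ligand linked to brown fat formation, was at 0.708 ± 0.352 CPM in intermediate and 1.24 ± 0.224 CPM in preadipocyte libraries (SD, n = 3) and did not pass the test (edgeR adjusted p = 0.146). Wnt genes were lower in 19 of 34 members and higher in 6, with a median of -1.34. The 6 higher Wnt members fell to between 1 and 2 without intermediate replicate 2 or 3 or preadipocyte replicate 1 or 2. Sfrp4 (-4.96) and Dkk3 (-4.71), which are secreted modulators of Wnt signals, the ligand Wnt5b (-3.28) and the receptor Fzd1 (-2.95) were lower, while the antagonist Dkk2 was higher (1.79).

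FGF genes were higher in 5 of 20 members and lower in 10, where 31.4% and 28.4% of all tested genes were. Klb, the coreceptor that lets fat cells respond to the hormone Fgf21, was at 2.13, 2.61 and 3.15 CPM in the intermediate and 51.2, 88.7 and 43.8 CPM in the preadipocyte libraries, and Fgf10, a ligand needed for fat development in mice, at 7.66, 5.95 and 6.04 CPM in the intermediate and 48.9, 59.4 and 47.6 CPM in the preadipocyte libraries. Both were higher without overlap, whereas Spry1, a feedback inhibitor, was lower (-2.22). Insulin-like growth factor genes were lower in 10 of 17 members and higher in none, but 3 were called higher with library size alone and 1 each with limma-voom, with no filter and without preadipocyte replicate 2 or 3. Named members were Igfbp7 (-3.46), Igf2r (-2.66) and Igf1r (-2.11), all lower, and Igf1 (0.15 ± 0.11) and Insr (0.32 ± 0.14), not called. Of 16 PDGF, VEGF and angiopoietin genes 10 were lower and 5 higher. Angpt2, which loosens vessels, was at 126, 111 and 115 CPM in the intermediate and 7.06, 3.76 and 4.19 CPM in the preadipocyte libraries, whereas Vegfb (1.95) and the receptor Nrp2 (2.32) were higher. Axon guidance genes were lower in 24 of 31 members and higher in none, with a median of -2.14. The number called higher was 4 with library size alone, 3 without preadipocyte replicate 3, 2 with no filter, and 1 each with limma-voom, the replicate block and without preadipocyte replicate 2. Ntn1, a netrin (-5.31), its receptor Unc5b (-4.34) and the ephrin receptor Ephb3 (-3.55) followed Epha3.

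Ion channels and vasoactive receptors are the means by which vessel cells sense voltage, calcium and hormones. Of 29 tested ion channel genes 18 were lower and 1 higher, with a median of -1.09. Kcne4, a potassium channel subunit (-4.82), and the voltage-gated calcium channel Cacna1g (-2.89) were lower, while Kcnk3, a background potassium channel found in brown fat, was the higher one (1.18). Vasoactive receptors and enzymes were lower in 10 of 28 members and higher in 4, where 28.4% and 31.4% of all tested genes were. Ednra, the endothelin receptor of smooth muscle, was at 259, 246 and 237 CPM in the intermediate and 18.7, 23.7 and 21.2 CPM in the preadipocyte libraries, a log2 fold change of -3.54 ± 0.14 (edgeR adjusted p = 4.18e-07). Both subunits of the nitric oxide sensor guanylate cyclase, Gucy1a1 (-3.48) and Gucy1b1 (-3.81), were lower, and the receptors Adrb3 (4.99), Adrb1 (3.74) and Ptger3 (3.36) were higher. Adrb1 had a log2 fold change of 3.15 without preadipocyte replicate 1. With library size alone 7 members were higher.

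Imprinted growth genes, which are expressed from 1 parental copy and are active before and soon after birth, were lower in 9 of 15 tested members and higher in 2, of which 1 was called without intermediate replicate 3. Peg10, a gene derived from a retrotransposon, lost its call there, and its log2 fold change of 1.26 was 0.64 without preadipocyte replicate 1. Nnat, a small membrane protein of neurons and fat, was at 20.6, 17.8 and 30.04 CPM in the intermediate and 342, 345 and 209 CPM in the preadipocyte libraries, a log2 fold change of 3.71 ± 0.27 (edgeR adjusted p = 4.38e-06). Peg3 (-2.02), Grb10 (-1.63), a brake on insulin signals, and Mest (-1.58) were lower. Dlk1 and H19 (0.53 ± 0.30) were not called, so the members of this list did not move as one.

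Immediate early and stress genes were lower in 17 of 24 members and higher in 2, with a median of -0.95. Nr4a2, an orphan nuclear receptor induced within minutes of a signal, was at 453, 501 and 609 CPM in the intermediate and 40.8, 38.8 and 39.3 CPM in the preadipocyte libraries, a log2 fold change of -3.72 ± 0.16 (edgeR adjusted p = 4.87e-07). The chaperone gene Hspa1a (-2.56) and Gadd45b (-2.08) were lower, while Fosl1 (1.72) and Myc (1.09) were higher. Of 19 genes of this list with a promoter entry, 2 held a CArG box (10.5%, against 1.73% of all genes with one), Egr2 and Zfp36. Counted per promoter, the box stood in 1.4% for genes lower by at least 4-fold and in 1.4% for genes higher by at least 4-fold.

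Inflammatory and antiviral genes showed no common direction. Over all tested genes 31.4% were higher and 28.4% lower. Cytokines and chemokines had 5 higher and 8 lower members of 19 (median -0.24, but 0.13 with library size alone), complement genes 5 and 6 of 14 (-0.24, but 0.12), and interferon response genes 3 and 4 of 18 (-0.13, but 0.22). Without preadipocyte replicate 3 the complement median was -0.14 over the same 14 genes and 0.21 over the 15 that then passed the filter on low counts. Cxcl13, a chemokine that draws B cells, was at 3.83, 2.54 and 1.84 CPM in the intermediate and 66.2, 45.0 and 41.1 CPM in the preadipocyte libraries, with no overlap between groups. Lif (-3.93) and Il6 (-2.22), cytokines of one family, were lower. C3, the central complement protein, was higher (2.78), and its log2 fold change was 3.73 without intermediate replicate 1. Rsad2, an antiviral enzyme, was at 0.0851, 0.725 and 0.526 CPM in the intermediate and 2.9, 7.69 and 69.9 CPM in the preadipocyte libraries, and its log2 fold change of 5.85 was 3.53 without preadipocyte replicate 3.

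Cholesterol synthesis genes were split, with 6 of 22 higher and 8 lower and a median of -0.37. With library size alone 10 were higher and 4 lower, and without intermediate replicate 1 or preadipocyte replicate 1 there were 5 lower. Lss, which closes the sterol ring system, was higher (1.64), while the master regulator Srebf2 (-0.77) was lower. Retinoid genes had 3 higher and 6 lower members of 16, among the latter the receptor Rarg (-2.84). The counts of each list in this paragraph stand beside shares of 31.4% higher and 28.4% lower over all tested genes. Hox genes, which mark position along the body, were called higher in 2 and lower in 7 of 20 tested members. The 7 became 3 with library size alone and 3 without intermediate replicate 3, and the 2 became 4 with library size alone and 4 without preadipocyte replicate 3. The thoracic gene Hoxa5 was at 20.7 ± 3.29 CPM in intermediate and 27.7 ± 7.73 CPM in preadipocyte libraries (SD, n = 3) and did not pass the test (edgeR adjusted p = 0.147).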

How the data were processed

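RNA of sorted cells was measured in 12 libraries, of which the 3 intermediate and 3 preadipocyte libraries were used. The authors deposited whole-number counts per gene and library. STAR 2.5.2a, DESeq2 1.26.0 and mm10 are named in the submitters' processing notes, while the counting tool, its annotation and its strand setting are not given in those notes or the labels. The deposited normalized and log-transformed tables were not used.

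Genes were named from GENCODE M21 on mm10. Low counts were removed with filterByExpr on the 6 libraries, which kept 17463 genes holding 99.5% to 99.8% of the counts. Counts were scaled with TMM (factors 0.863 to 0.892 in intermediate and 1.11 to 1.17 in preadipocyte libraries) and compared by the two-sided quasi-likelihood test of edgeR 4.0.16 under R 4.3.3, with a coefficient per group, Benjamini-Hochberg adjustment over all genes and calls under 0.05. The common biological coefficient of variation was 0.235. The script was tested on simulated data.

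The members and 55 gene lists (1112 entries, 1107 matched, 996 distinct genes tested) were chosen with earlier results of these data known, so list counts are descriptions. Some list members are counted but not reported here by name. Of the tested list genes, 384 were higher and 391 lower. Genes were named by rule: the 12 largest differences per direction (mean log2 CPM of at least 4, no overlap between groups, no Gm or Rik names), up to 6 members per list and direction with the smallest p, members named as not passing, and 24 genes taken in every case beside the haemoglobin genes. Retn, Cox8b, mt-Co1 and Egr2 were named after their values were seen, and the genes whose promoters are printed were taken as those with the motif and the largest fold change. Replicate pairs correlated at 0.959 to 0.985 (Pearson's r of log2 CPM over genes), with a chi-square of 4.37 to 84.6 per degree of freedom, so none was a library deposited again. A count of 0 allows up to 3 counts, which is 0.191 to 0.233 CPM. Reads carry no molecular identifiers, so this covers counting error only. Promoters are RefSeq sequences of GRCm38.p6 (32851 promoters of 27025 genes), and their motifs were also chosen with earlier results known.

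As alternatives, edgeR was run with RLE size factors and with library size alone, and the comparison was repeated with DESeq2 1.42.0, with limma-voom and quality weights (limma 3.58.1), no filter, at least 5 CPM in 3 libraries, all 12 libraries in the fit, a replicate block, each library left out, protein-coding genes alone, and removal of Lars2, Gm23935, haemoglobin and mitochondrial genes.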

Additional observations from a re-analysis of the deposited data

How the results depend on the processing

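The counts of 5479 higher and 4964 lower genes stayed within 1.5 times of these values under every alternative run. DESeq2 gave 5157 and 4857, limma-voom 5557 and 5230, the fit on all 12 libraries 5540 and 6617, and the stricter filter, with 11390 genes tested, 4268 and 3909. Leaving out 1 library gave 4589 to 5616 higher and 4108 to 5743 lower genes. With library size alone 67.9% of called genes were higher, against 52.5% with TMM. Directions turned as follows. With library size alone the medians became 0.24 for lipogenesis, 0.13 for cytokines, 0.12 for complement, 0.22 for interferon response and 0.31 for endothelial markers (from -0.06; -0.74 to 0.25 over the libraries left out), and Dlk1 became 0.26. Endothelial markers also became 0.04 with no filter, 0.15 without intermediate replicate 1, 0.21 without intermediate replicate 2 and 0.25 without preadipocyte replicate 3. Chondrocyte markers (0.09) became -0.08 with limma-voom, -0.08 with the replicate block and -0.22 without preadipocyte replicate 1 (up to 0.19 over the libraries left out). Dlk1 became 0.01 with no filter and 0.04 without preadipocyte replicate 3 (down to -0.38 over the libraries left out). With library size alone 4 genes each were called higher in the TGF-beta and BMP, imprinted, immediate early and axon guidance lists, 3 in the insulin-like growth factor list, and 2 interferon genes lower. The cause was not tested. Deviations of same-numbered libraries correlated at 0.003, -0.0602 and 0.157, and those of differently numbered libraries at -0.193 to 0.241. With 3 libraries per group these values cannot decide whether the numbers pair the samples. With a replicate block 5279 genes were higher and 4982 lower. A count of 0 allows up to 0.233 CPM, and folds against levels near it are imprecise.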

Other observations

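Several gene families that the lists did not cover as families also differed between the populations. They were taken by symbol, protein-coding genes only, after their values had been seen, and are given as descriptions. All 77 tested genes of mitochondrial ribosomal proteins were called higher in preadipocyte libraries, with log2 fold changes of 0.94 to 3.37 and a median of 2.04. Mrpl34, a member of the large subunit, was at 9.02, 9.64 and 8.06 CPM in the intermediate and 96.0, 92.0 and 89.4 CPM in the preadipocyte libraries. Of 79 genes of cytosolic ribosomal proteins 78 were higher (median 1.75), although many of these genes have near-identical pseudogenes, which makes their counts uncertain. Rpl24 was the exception, at 3.71 ± 0.641 CPM in intermediate and 2.64 ± 0.341 CPM in preadipocyte libraries (SD, n = 3). Genes of the mitochondrial import machinery were higher in 20 of 22 cases (median 1.87), led by Timm8a1 (3.68). The mitochondrial tRNA synthetases were higher in 16 of 17 cases (median 1.63). Lars2, the remaining one, rose and fell over the libraries with Gm23935, as given above. What the counts of Lars2 stem from was not tested. It was at 13479, 11616 and 17819 CPM in the intermediate and 12245, 1523 and 2575 CPM in the preadipocyte libraries. Its log2 fold change of -1.39 ± 0.65 was not called (edgeR adjusted p = 0.0905) and became -2.85, and called, without preadipocyte replicate 1; limma-voom, no filter, the fit on all 12 libraries and the replicate block changed its call as well.

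Proteasome subunits and associated genes were higher in 38 of 39 cases with a median of 1.23, and cytosolic tRNA synthetases in 15 of 17 with a median of 1.03. The immunoproteasome subunit gene Psmb8 did not pass the test (0.09 ± 0.22). Of 41 carriers of the mitochondrial inner membrane 24 were higher and 7 lower (median 0.73), where 31.4% and 28.4% of all tested genes were. The ATP carrier Slc25a5 was at 242, 201 and 234 CPM in the intermediate and 1239.8, 1375 and 1398 CPM in the preadipocyte libraries, while Slc25a24 was lower (-1.99). The iron carrier Slc25a37 was at 8.51, 7.47 and 10.4 CPM in the intermediate and 17.0, 16.8 and 288 CPM in the preadipocyte libraries, highest in preadipocyte replicate 3, as the haemoglobin genes were.

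Enzymes that cut the matrix were mostly lower in preadipocyte libraries, as the matrix genes were. Of 18 Adamts genes 17 were lower and 1 higher, with a median of -2.10. Adamts2, which trims procollagen, was at 2171, 2111 and 2089.9 CPM in the intermediate and 107, 106 and 81.1 CPM in the preadipocyte libraries. Of 14 matrix metalloproteinase genes 8 were lower and 2 higher. The membrane-bound Mmp14 was at 1748, 1593 and 1718 CPM in the intermediate and 167, 184 and 153 CPM in the preadipocyte libraries, whereas Mmp19 (2.36) and Mmp28 (2.93) were higher. Tubulins were split by gene, with Tubb4a (-2.57) and Tuba1a (-1.69) lower and Tuba4a (2.59) and Tubb5 (1.104) higher. Perilipins were higher in 4 of 5 cases, Plin3, which many cell types use, being the one not called (0.33 ± 0.14). Aqp1, a water channel of red cells and other cells, was at 12.5, 13.6 and 8.06 CPM in the intermediate and 15.2, 12.8 and 267 CPM in the preadipocyte libraries. Preadipocyte replicate 3 alone stood apart there, and the other libraries of the groups overlapped.

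Motif shares were also counted, per gene with an entry, for 3 further lists. A CCAAT box stood in at least 1 promoter of 15 of 15 cholesterol synthesis genes (against 39.7% of all genes), and in 15 of their 18 promoters, although that list did not move in one direction. The nuclear receptor core motif AGGTCA stood in promoters of 6 of 24 thermogenic genes (25.0%, against 17.2%). Its letters also lie within TCAAGGTCA, the site of estrogen-related receptors. That longer site stood in 0 of the 28 thermogenic promoters, against 0.417% of all promoters. GTGGGAA, a site of the Notch effector Rbpj, stood in promoters of 2 of 14 Notch genes (14.3%, against 6.74%).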
